A study of Homo sapiens with 3 samples.

Results

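G protein coupled receptors (GPCRs) that bind ligands other than chemokines were followed in NB4 cells after silencing of ARID1B. The receptors were chosen by name. They are the protein-coding genes called GPR, ADGRA to ADGRV, P2RY, FPR, LPAR, S1PR, PTGER, HCAR, HRH, ADORA, ADRB or ADRA with a number, together with C5AR1, C5AR2, C3AR1, LTB4R, LTB4R2, PTAFR, CYSLTR2, F2R, F2RL1, F2RL2, F2RL3 and CMKLR1. The rule found 164 of the 57773 rows of the count table. It left out 19 further name matches, of which 12 were pseudogenes, 6 were antisense or long intergenic RNAs and 1 was a readthrough transcript.

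The NB4 line was grown from a human acute promyelocytic leukaemia and has the PML-RARA fusion gene. ARID1B belongs to BAF, a complex that moves nucleosomes and opens chromatin. Polyadenylated RNA was sequenced from 2 libraries of NB4 cells with a short hairpin RNA (shRNA) against ARID1B, hairpin 2 in one and hairpin 3 in the other, and from 1 library of NB4 cells with a control hairpin that has no target. All cells grew in RPMI 1640 with serum, and the labels name no differentiating agent. Whether each library had its own infection or culture is not stated in the labels, so p-values reflect the spread among these samples alone, and that spread may be technical. With 1 control library, the spread comes from the 2 ARID1B shRNA libraries alone, and so may also hold differences between the hairpins.

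GPCRs cross the membrane several times and pass a signal inward by switching on heterotrimeric G proteins. Gs-coupled receptors raise cyclic AMP and Gi-coupled receptors lower it, while Gq-coupled receptors activate phospholipase C beta. RGS proteins shorten the signal by speeding GTP hydrolysis on the alpha subunit, and receptor kinases with arrestins end it at the receptor. In granulocytes and monocytes the receptors for formyl peptides, complement fragments and lipid mediators guide chemotaxis, degranulation and the oxidative burst, and many of them appear late in myeloid maturation.

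ARID1B itself (ENSG00000049618) had 2209 counts under hairpin 2 and 2234 under hairpin 3, against 5268 in control cells. Its level was 36.3 ± 0.635 CPM (counts scaled to library size; SD, n = 2) in ARID1B shRNA cells and 84.9 CPM in control cells (log2 fold change -1.23 ± 0.125, mean ± SE; edgeR quasi-likelihood test, Benjamini-Hochberg adjusted p = 1.43e-05). Libraries held 59997475 counts under hairpin 2, 62954803 under hairpin 3 and 61640692 in control cells, and the receptors took 0.1317%, 0.1155% and 0.0984% of them. Among markers of other cell types, the 8 eosinophil, basophil and mast cell genes summed to 2142 and 1123 CPM under hairpins 2 and 3, against 91.7 CPM in control cells, and 6 of them rose while FCER1A had 0 counts in all libraries. The 6 monocyte and macrophage markers summed to 74.1 and 51.7 CPM in ARID1B shRNA cells, against 32.0 CPM in control cells, and 3 of them rose. The promyelocyte markers stayed the most abundant, at 14427 and 12407 CPM in ARID1B shRNA cells and 11372 CPM in control cells. They did not move together: of the 7, PRTN3 rose and CTSG fell, with log2 fold changes over the list from -1.93 to 2.11. The 5 mature neutrophil markers summed to 167.3 and 188.0 CPM in ARID1B shRNA cells, against 145.1 CPM in control cells, with CXCR2 the 1 called, higher, and with FCGR3B and CXCR1 at 4 counts or fewer in every library. The 7 T, NK and B cell markers summed to 61.5 and 46.6 CPM in ARID1B shRNA cells, against 33.8 CPM in control cells, where CD3D and NKG7 rose and MS4A1 had 0 counts in all libraries. The erythroid markers summed to under 1 CPM in each library, and the epithelial, fibroblast and endothelial ones to 18.2 and 22.2 CPM in ARID1B shRNA cells and 22.3 CPM in control cells, with none called.

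More receptors were higher than lower in ARID1B shRNA cells. Of the 164 genes, 86 had at least 10 counts in some library and were tested, 52 had between 1 and 9 counts at most, and 26 had none in any library. At an adjusted p under 0.05 over all 20382 genes tested, 24 receptors rose and 6 fell, and 56 did not pass. Over all genes tested the same threshold called 8.7%, 5.49% higher and 3.21% lower, against 27.9% higher and 6.98% lower of the receptors tested. Among protein-coding genes alone the shares were 7.16% higher and 4.0% lower. The median log2 fold change was 0.32 over the tested receptors and -0.01 over all genes tested. In the count of fitted changes of at least 2-fold, 25 receptors were higher and 2 were lower, where 5.17% of all genes tested were as far above and 3.36% as far below. Of the receptors tested, 11 had fewer than 10 counts in control cells and were tested only through the ARID1B shRNA libraries, so they had to differ, and 5 of these (FPR1, FPR3, CMKLR1, GPR39 and P2RY14) are among the 24. Without the 11, 19 of 75 rose and 6 fell, with a median log2 fold change of 0.12. A like removal over all genes tested was not made, so the shares and median given above do not match these counts. The nearest inside the threshold were S1PR2 (adjusted p = 0.0452), LPAR4 (0.0471), GPR84 (0.0472) and PTGER2 (0.0487), and the nearest outside were P2RY2 (0.0659), ADGRL1 (0.0782) and ADGRA2 (0.0849). With 2 libraries against 1, the calls depend on the low-count filter: without it none of the 30 passed in edgeR, where 32 of the 164 receptors had an unadjusted p under 0.05. With the filter, edgeR with robust empirical Bayes called 17 receptors higher and 6 lower, beside 4.39% and 2.85% of all genes tested. DESeq2 called 19 higher and 1 lower, beside 3.8% and 1.36%.

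**Figure D1:**
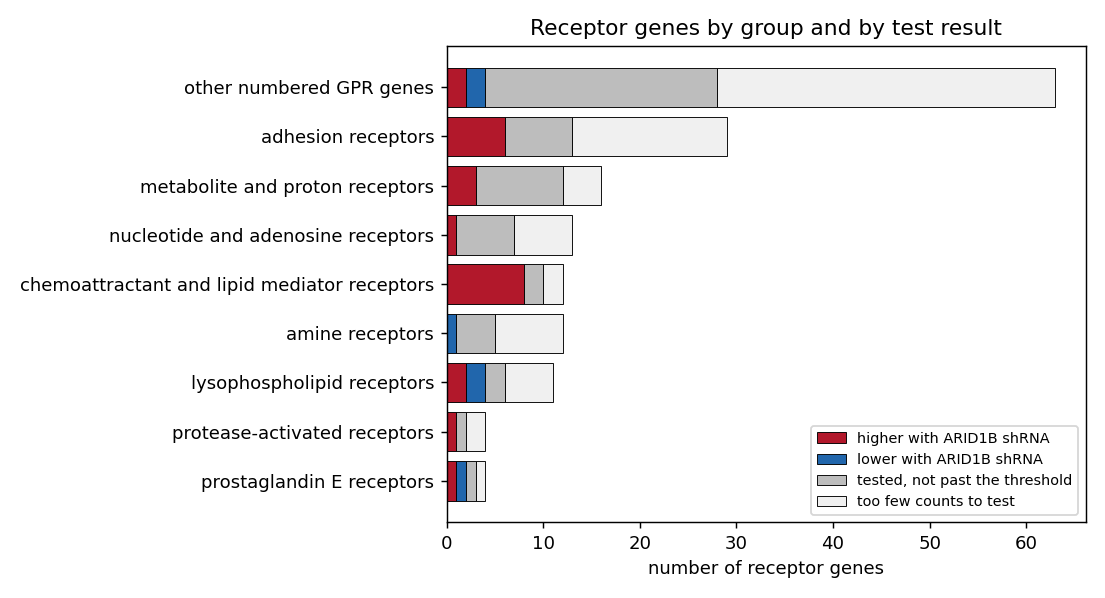
Number of receptor genes in each group, one bar a group, split into those higher and lower with ARID1B shRNA than with control shRNA, those tested and not past the threshold, and those with too few counts to test. Of 10 tested receptors for chemoattractants and lipid mediators 8 were higher, and of 13 tested adhesion receptors 6 were higher and none was lower.

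Most of the tested receptors for chemoattractants and lipid mediators rose. Of 12 in the table, 10 were tested, 8 rose and none fell, with a median log2 fold change of 1.62. Of the 8, CMKLR1, FPR1 and FPR3 had under 10 counts in control cells and were tested only through the ARID1B shRNA libraries. Without these 3, 5 of 7 rose, with a median of 1.17. Their summed level was 173.7 and 119.6 CPM under hairpins 2 and 3, against 83.2 CPM in control cells. Windows around the transcription start are shown for 4 of the receptors that rose, and for PTGER4, the receptor with the lowest adjusted p among those that fell, so that the letters can be read beside the values below. They run 5′ to 3′ on the gene's strand, 250 bases before the start and 50 from it, from RefSeq on GRCh38.p14. Capitals mark matches to GAGGAA, the core bound by PU.1, or to TGANTCA, the AP-1 site, on either strand. AGATAA, the GATA site, and TTGCNNAA, a C/EBP site, were also searched and are in none of these windows.
CMKLR1, chr12:108320593-108320892, minus strand: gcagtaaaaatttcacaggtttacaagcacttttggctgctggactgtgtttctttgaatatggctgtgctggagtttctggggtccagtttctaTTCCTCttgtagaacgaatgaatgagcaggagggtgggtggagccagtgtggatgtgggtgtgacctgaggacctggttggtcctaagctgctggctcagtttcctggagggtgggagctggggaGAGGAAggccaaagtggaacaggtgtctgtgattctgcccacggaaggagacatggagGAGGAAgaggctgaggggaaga
FPR1, chr19:51751829-51752128, minus strand: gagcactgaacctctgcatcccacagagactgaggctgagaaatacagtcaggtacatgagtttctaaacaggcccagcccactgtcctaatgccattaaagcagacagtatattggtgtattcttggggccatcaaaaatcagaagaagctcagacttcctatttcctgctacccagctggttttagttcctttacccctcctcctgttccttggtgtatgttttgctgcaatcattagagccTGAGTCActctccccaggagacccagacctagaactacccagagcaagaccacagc
C3AR1, chr12:8066310-8066609, minus strand: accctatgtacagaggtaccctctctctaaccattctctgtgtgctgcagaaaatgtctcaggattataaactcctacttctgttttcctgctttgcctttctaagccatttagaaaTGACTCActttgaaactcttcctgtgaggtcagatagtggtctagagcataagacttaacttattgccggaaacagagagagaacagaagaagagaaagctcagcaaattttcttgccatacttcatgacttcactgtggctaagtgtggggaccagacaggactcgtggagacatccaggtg
C5AR1, chr19:47309611-47309910, plus strand: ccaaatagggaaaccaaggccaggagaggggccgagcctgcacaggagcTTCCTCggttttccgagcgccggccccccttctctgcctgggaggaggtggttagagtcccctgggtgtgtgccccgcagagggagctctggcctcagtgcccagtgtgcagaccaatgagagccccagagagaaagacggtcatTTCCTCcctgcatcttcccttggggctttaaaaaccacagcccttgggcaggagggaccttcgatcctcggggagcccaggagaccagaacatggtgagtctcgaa
PTGER4, chr5:40679665-40679964, plus strand: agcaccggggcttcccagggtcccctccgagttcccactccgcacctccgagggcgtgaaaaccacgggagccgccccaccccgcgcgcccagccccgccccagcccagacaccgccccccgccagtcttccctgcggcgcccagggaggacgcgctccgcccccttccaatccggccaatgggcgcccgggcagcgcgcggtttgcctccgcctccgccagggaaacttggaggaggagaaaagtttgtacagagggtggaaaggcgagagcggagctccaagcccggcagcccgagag

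The CMKLR1 window holds 3 GAGGAA matches and the C5AR1 window holds 2. FPR1 has 1 TGANTCA match that begins at -6 from the start, and C3AR1 has 1 that begins at -133. None of these matches overlaps another, and the PTGER4 window holds none of the 4 motifs. Over 35116 windows of the same length GAGGAA was in 27.85% and TGANTCA in 7.709%, AGATAA in 10.33% and TTGCNNAA in 10.46%. RefSeq windows were matched for 118 of the 164 receptors, among them 18 of the 24 that rose, whose 25 windows held GAGGAA in 12 and TGANTCA in 5. AGATAA and TTGCNNAA were each in 4 of those 25. In the 58 windows of receptors that did not pass the test, GAGGAA was in 23, TGANTCA in 6, AGATAA in 5 and TTGCNNAA in 6. The 4 windows of receptors that fell held TTGCNNAA in 1 and none of the other motifs. Among the 77 windows of untested receptors GAGGAA was in 20, TGANTCA in 5, AGATAA in 13 and TTGCNNAA in 10. These are matches of letters, not binding sites.

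Formyl peptide receptors bind peptides that bacteria and mitochondria begin with formylmethionine. All 3 rose, each to a low level. FPR2 (ENSG00000171049), which also binds annexin A1 and the cathelicidin peptide, had 140 and 68 counts under hairpins 2 and 3, against 16 in control cells (log2 fold change 2.72 ± 0.554, SE; adjusted p = 0.00486). FPR1 (ENSG00000171051), the high-affinity receptor, had 74 and 32 counts in ARID1B shRNA cells, against 5 in control cells (3.40 ± 0.771; adjusted p = 0.0102). FPR3 (ENSG00000187474) had 26 and 7 counts in ARID1B shRNA cells and 0 in control cells, which puts it at least 8.95-fold and 2.32-fold above the limit of 3 counts that a count of 0 allows (adjusted p = 0.0374). Both hairpins stood above control for each gene, and hairpin 2 stood above hairpin 3. The hairpin 2 ratio to control was 15.3 for FPR1, with a 95% counting interval of 6.26 to 48.5, and the hairpin 3 ratio was 6.38, with an interval of 2.47 to 21.0. The chemerin receptor CMKLR1 (ENSG00000174600) had the same pattern, with 78 and 34 counts in ARID1B shRNA cells against 4 in control cells (3.79 ± 0.805; adjusted p = 0.00644). FPR3 missed the threshold under robust empirical Bayes (adjusted p = 0.0903) and got no adjusted p from DESeq2.

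The receptors for platelet activating factor and for complement fragments rose too, and were more abundant. PTAFR (ENSG00000169403), the receptor for platelet activating factor, had 3181 and 1984 counts under hairpins 2 and 3, against 663 in control cells. Its level was 42.4 ± 14.9 CPM (SD, n = 2) in ARID1B shRNA cells and 10.7 CPM in control cells (log2 fold change 1.99 ± 0.234; adjusted p = 4.68e-05). C3AR1 (ENSG00000171860), the C3a receptor, had 1175 and 1042 counts in ARID1B shRNA cells, against 471 in control cells (1.26 ± 0.176; adjusted p = 0.000205). Its hairpins lay closer together than those of PTAFR. C5AR1 (ENSG00000197405), the C5a receptor that drives neutrophil chemotaxis, had 2137 and 1460 counts in ARID1B shRNA cells, against 813 in control cells (1.17 ± 0.205; adjusted p = 0.00153). C5AR2 (ENSG00000134830), a second C5a receptor that signals poorly through G proteins, had 534 and 404 counts in ARID1B shRNA cells, against 253 in control cells (0.91 ± 0.230; adjusted p = 0.0200). PTAFR and C5AR1 missed the threshold under robust empirical Bayes (adjusted p = 0.135 and 0.0726), and C5AR2 missed it with DESeq2 (adjusted p = 0.0642).

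The leukotriene B4 receptors did not pass. LTB4R, the high-affinity receptor, had 1972 and 1476 counts under hairpins 2 and 3, against 1643 in control cells (log2 fold change 0.09 ± 0.172; adjusted p = 0.827). The hairpin 2 ratio to control was 1.24 (95% counting interval 1.16 to 1.32) and the hairpin 3 ratio was 0.895 (0.834 to 0.961), so the hairpins lay on opposite sides of control. LTB4R2, the low-affinity receptor, had 1127 and 944 counts in ARID1B shRNA cells and 1296 in control cells (-0.30 ± 0.161; adjusted p = 0.318), and 39.5% of its exon length is shared with CIDEB. CYSLTR2, a cysteinyl leukotriene receptor, had 0 and 2 counts in ARID1B shRNA cells and 0 in control cells, and GPR1 was likewise untested, with 0 and 1 counts against 0. In bulk RNA a change in the number of cells of a type and a change in RNA per cell cannot be told apart. The 8 receptors that rose had the order hairpin 2 above hairpin 3 above control. The promyelocyte, the monocyte, the eosinophil, basophil and mast cell, and the T, NK and B cell marker sums given above had this order. So did the sum of megakaryocyte markers given below. The mature neutrophil sum did not, at 167.3 and 188.0 CPM under hairpins 2 and 3. Nor did the epithelial, fibroblast and endothelial sum, at 18.2 and 22.2 CPM, or the erythroid sum, where hairpin 3 lay below control. Hairpin 2 lay above hairpin 3 in 83.29% of the 1119 genes called higher in the whole table. The part of these cell types in the result was not tested.

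**Figure D2:**
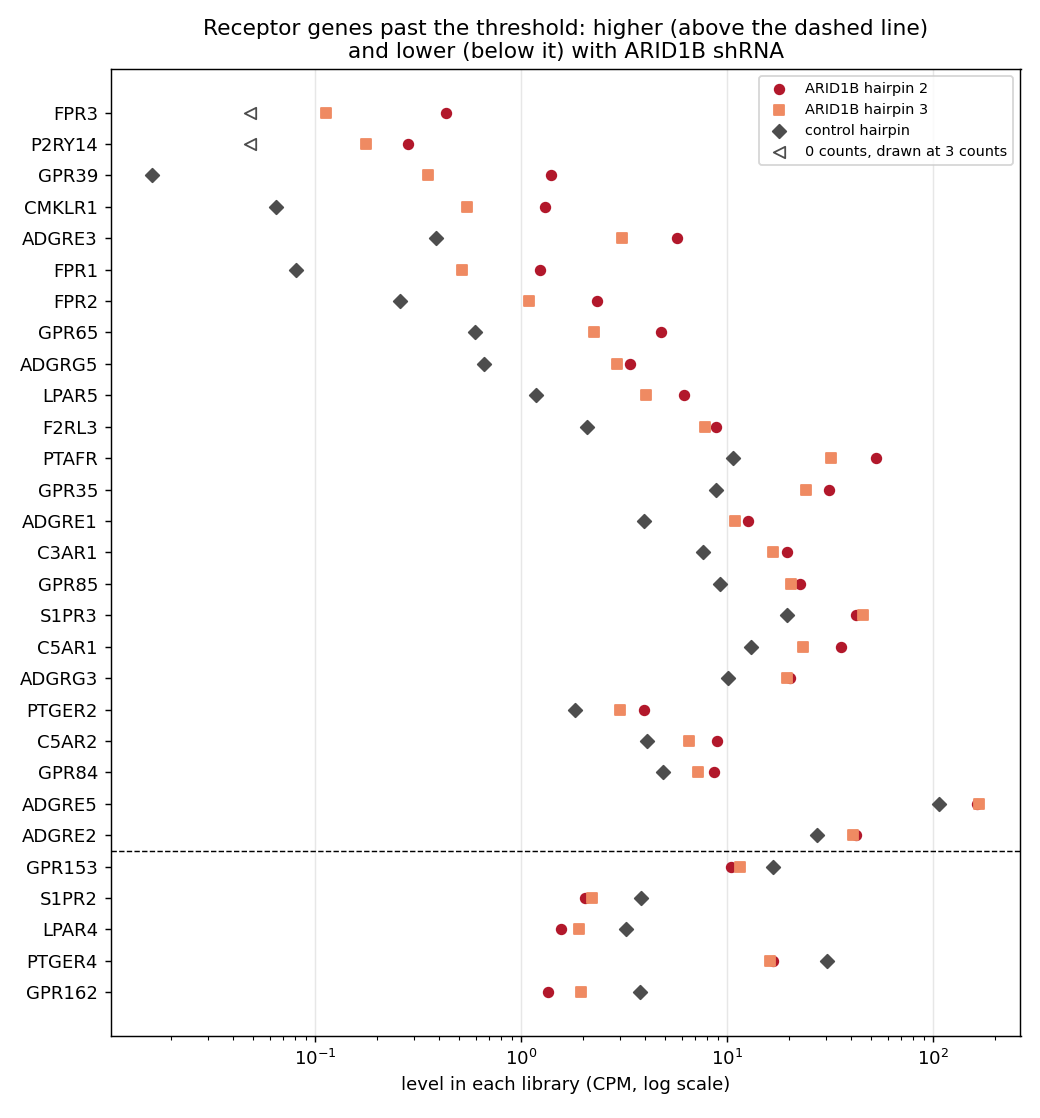
Level of the called receptors in every library, in CPM on a log axis, with ARID1B hairpins 2 and 3 and the control library as separate points and a count of 0 drawn at 3 counts. Hairpin 2 lay above hairpin 3 in 22 of the 24 receptors that rose, and both hairpins lay on the same side of control in every receptor shown.

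Adhesion GPCRs carry a long extracellular region that is cut from the membrane part and tethers cells to matrix or to other cells. Of 29 listed, 13 were tested, 6 rose and none fell, with a median log2 fold change of 0.63. The remaining 16 had at most 9 counts in any library. The ADGRE receptors, a family of leukocyte surface proteins with EGF-like repeats, made up 4 of the 6.

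ADGRE3 (ENSG00000131355, also EMR3) had 342 and 192 counts under hairpins 2 and 3, against 24 in control cells (log2 fold change 3.49 ± 0.448; adjusted p = 9.40e-05). That is 11.3-fold, with single-hairpin ratios of 14.7 (95% counting interval 9.72 to 23.3) and 7.97 (5.20 to 12.7). ADGRE1 (ENSG00000174837), the human counterpart of the mouse macrophage antigen F4/80 and an eosinophil surface protein in man, had 755 and 683 counts in ARID1B shRNA cells, against 244 in control cells (1.58 ± 0.200; adjusted p = 8.51e-05). The hairpins agreed more closely on ADGRE1 than on ADGRE3. ADGRE5 (ENSG00000123146, CD97), which binds CD55, was among the most abundant receptors, with 9853 and 10406 counts in ARID1B shRNA cells against 6649 in control cells. Its level was 165.4 ± 2.18 CPM (SD, n = 2) in ARID1B shRNA cells and 107.1 CPM in control cells (0.63 ± 0.132; adjusted p = 0.00607). ADGRE2 (ENSG00000127507), which binds chondroitin sulphate, had 2531 and 2535 counts in ARID1B shRNA cells, against 1683 in control cells (0.61 ± 0.137; adjusted p = 0.00974). ADGRE2 and ADGRE5 share closely similar EGF-like exons, so reads may have been divided between them wrongly.

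A second set of adhesion receptors lies side by side on chromosome 16. ADGRG5 (ENSG00000159618) had 202 and 181 counts under hairpins 2 and 3, against 41 in control cells (log2 fold change 2.24 ± 0.333; adjusted p = 0.000368). ADGRG3 (ENSG00000182885, GPR97), a granulocyte receptor, had 1215 and 1210 counts in ARID1B shRNA cells, against 628 in control cells (0.97 ± 0.160; adjusted p = 0.000931). ADGRG1 (GPR56), which lies between them, had 24 and 29 counts in ARID1B shRNA cells and 13 in control cells and did not pass (1.04 ± 0.553; adjusted p = 0.315). The hairpins gave nearly the same values at all 3 genes.

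Adhesion receptors known from other tissues did not pass the test. ADGRA2, which works with RECK in WNT7 signalling of brain vessels, had 2895 and 3519 counts in ARID1B shRNA cells and 4288 in control cells (-0.40 ± 0.136; adjusted p = 0.0849). ADGRL1, a latrophilin of synapses, had 1264 and 1711 counts in ARID1B shRNA cells and 2096 in control cells (-0.48 ± 0.159; adjusted p = 0.0782). Both were below control under each hairpin, and both passed with upper quartile factors or with library size alone. ADGRB1, a receptor for phosphatidylserine on dying cells, had 2293 and 1703 counts in ARID1B shRNA cells and 1654 in control cells (0.30 ± 0.174; adjusted p = 0.371). The other 3 tested adhesion receptors, ADGRF3, ADGRG2 and ADGRV1, had at most 225 counts in any library.

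Receptors for lysophosphatidic acid (LPA) and sphingosine 1-phosphate (S1P), which are lipids of plasma that steer cell migration, went both ways. Of 11 listed, 6 were tested, 2 rose and 2 fell. S1PR3 (ENSG00000213694) had 2542 and 2847 counts under hairpins 2 and 3, against 1207 in control cells, or 44.0 ± 2.40 CPM (SD, n = 2) against 19.4 CPM (log2 fold change 1.18 ± 0.144; adjusted p = 6.63e-05). It was 1 of the receptors that rose in which hairpin 3 exceeded hairpin 2. LPAR5 (ENSG00000184574) had 371 and 250 counts in ARID1B shRNA cells, against 73 in control cells (2.11 ± 0.318; adjusted p = 0.000421). S1PR2 (ENSG00000267534), a G12/13-coupled receptor that restrains migration, had 122 and 138 counts in ARID1B shRNA cells, against 236 in control cells (-0.84 ± 0.248; adjusted p = 0.0452). LPAR4 (ENSG00000147145) had 94 and 119 counts in ARID1B shRNA cells, against 201 in control cells (-0.90 ± 0.266; adjusted p = 0.0471). Both hairpins stood below control for S1PR2 and for LPAR4, but neither gene passed with DESeq2 (adjusted p = 0.355 and 0.378).

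S1PR4, the S1P receptor of blood cells, and LPAR2 did not pass. S1PR4 had 1752 and 1670 counts in ARID1B shRNA cells and 1664 in control cells (0.06 ± 0.141; adjusted p = 0.866). LPAR2 had 974 and 757 counts in ARID1B shRNA cells and 622 in control cells (0.50 ± 0.190; adjusted p = 0.130). S1PR1, LPAR1 and LPAR3 had 0 counts in all 3 libraries.

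Protease-activated receptors are cut by thrombin and related proteases, and the new end acts as a tethered ligand. F2RL3 (ENSG00000127533), which encodes the thrombin receptor PAR4 of platelets, had 529 and 488 counts under hairpins 2 and 3, against 129 in control cells. Its level was 8.32 ± 0.685 CPM (SD, n = 2) in ARID1B shRNA cells and 2.08 CPM in control cells (log2 fold change 2.0 ± 0.231; adjusted p = 3.85e-05). The hairpins differed little from each other beside their distance from control. F2R, which encodes PAR1, had 47 and 41 counts in ARID1B shRNA cells and 35 in control cells (0.35 ± 0.416; adjusted p = 0.708). F2RL1 and F2RL2 had at most 1 and 2 counts in any library. Among megakaryocyte and platelet markers PF4 and GP9 had 0 counts in all libraries, and the 4 markers summed to 45.6 and 16.8 CPM in ARID1B shRNA cells against 2.26 CPM in control cells. ITGA2B was the 1 marker of these that rose.

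Among the receptors that raise cyclic AMP through Gs, the prostaglandin E2 receptors went opposite ways. PTGER4 (ENSG00000171522, EP4) had 999 and 1007 counts under hairpins 2 and 3, against 1896 in control cells. Its level was 16.4 ± 0.325 CPM (SD, n = 2) in ARID1B shRNA cells and 30.5 CPM in control cells (log2 fold change -0.90 ± 0.141; adjusted p = 0.000584), with single-hairpin ratios of 0.544 (95% counting interval 0.503 to 0.588) and 0.529 (0.490 to 0.571). It was the receptor that fell with the most counts, and the hairpins gave nearly the same value. PTGER2 (ENSG00000125384, EP2) had 238 and 188 counts in ARID1B shRNA cells, against 113 in control cells (0.94 ± 0.280; adjusted p = 0.0487), and missed the threshold with DESeq2 (adjusted p = 0.237) and with robust empirical Bayes (adjusted p = 0.0513). PTGER1, which couples to calcium signalling, had 23 and 5 counts in ARID1B shRNA cells and 7 in control cells (1.01 ± 0.858; adjusted p = 0.572), and PTGER3 had at most 4 counts.

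Amine receptors bind adrenaline, noradrenaline or histamine, and 5 of the 12 listed were tested. ADRB1, the main adrenergic receptor of heart muscle, had 106 counts under each hairpin and 72 in control cells (0.58 ± 0.317; adjusted p = 0.333). HRH1, the histamine receptor behind allergic smooth muscle contraction, had 367 and 344 counts in ARID1B shRNA cells and 235 in control cells (0.62 ± 0.218; adjusted p = 0.0991). HRH2, the Gs-coupled histamine receptor, had 384 and 396 counts in ARID1B shRNA cells and 400 in control cells (-0.02 ± 0.194; adjusted p = 0.975). HRH4, the histamine receptor of eosinophils and mast cells, had 10 and 15 counts in ARID1B shRNA cells and 4 in control cells (1.63 ± 0.817; adjusted p = 0.277). No histamine receptor passed, while HDC, the enzyme that makes histamine, rose as given below.

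Of 7 nucleotide and adenosine receptors tested, 1 rose and none fell. P2RY14 (ENSG00000174944), the receptor for UDP-glucose, had 17 and 11 counts under hairpins 2 and 3 and 0 in control cells. That is at least 5.85-fold and 3.65-fold above the limit of 3 counts that a count of 0 allows (adjusted p = 0.0213), and DESeq2 gave it no adjusted p. Its neighbour on chromosome 3, GPR171, had 0 counts in all libraries, and P2RY12 and P2RY13 had at most 2. P2RY2, which binds ATP and UTP, had 5986 and 6534 counts in ARID1B shRNA cells and 4782 in control cells (log2 fold change 0.41 ± 0.130; adjusted p = 0.0659), and passed only in the legacy quasi-likelihood fit (adjusted p = 0.0499). P2RY11, an ATP receptor, had 10568 and 7460 counts in ARID1B shRNA cells and 8066 in control cells (0.19 ± 0.177; adjusted p = 0.623). Its hairpins lay on opposite sides of control, at ratios of 1.35 (95% counting interval 1.31 to 1.39) and 0.921 (0.893 to 0.951). P2RY11 shares 50% of its exon length with the readthrough gene PPAN-P2RY11, so its level is uncertain.

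P2RY6, the UDP receptor, had 364 and 280 counts in ARID1B shRNA cells and 307 in control cells (0.09 ± 0.228; adjusted p = 0.877). P2RY8, a receptor of germinal centre B cells, had 456 and 430 counts in ARID1B shRNA cells and 425 in control cells (0.08 ± 0.191; adjusted p = 0.870). Neither passed the test. Of the adenosine receptors, ADORA2A, a Gs-coupled receptor that calms leukocytes, had 313 and 262 counts in ARID1B shRNA cells and 191 in control cells (0.61 ± 0.240; adjusted p = 0.147). ADORA2B had 124 and 161 counts in ARID1B shRNA cells and 145 in control cells (-0.01 ± 0.275; adjusted p = 0.992). ADORA2A shares 56.8% of its exon length with the readthrough gene SPECC1L-ADORA2A, so its level is uncertain too.

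Receptors for metabolites and protons include 3 that rose of 12 tested and 16 in the table. The median log2 fold change was 0.28, or -0.01 without GPR34 and GPR174, which had under 10 counts in control cells. GPR35 (ENSG00000178623), a receptor of gut and immune cells, had 1876 and 1495 counts under hairpins 2 and 3, against 548 in control cells. Its level was 27.6 ± 5.10 CPM (SD, n = 2) in ARID1B shRNA cells and 8.83 CPM in control cells (1.64 ± 0.183; adjusted p = 2.96e-05). GPR65 (ENSG00000140030), which senses extracellular acid, had 288 and 140 counts in ARID1B shRNA cells, against 37 in control cells (2.55 ± 0.455; adjusted p = 0.00174). Hairpin 2 gave a ratio to control of 8.04 (95% counting interval 5.69 to 11.7) and hairpin 3 gave 3.77 (2.61 to 5.57), and the call was lost under robust empirical Bayes (adjusted p = 0.115). GPR84 (ENSG00000139572), which binds medium-chain fatty acids, had 516 and 451 counts in ARID1B shRNA cells, against 304 in control cells (0.69 ± 0.205; adjusted p = 0.0472). That call was lost with upper quartile factors (adjusted p = 0.0601), robust empirical Bayes (0.0543) and DESeq2 (0.184).

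Other receptors for metabolites did not pass. GPR132, a relative of GPR65, had 997 and 679 counts in ARID1B shRNA cells and 586 in control cells (0.54 ± 0.215; adjusted p = 0.153). HCAR1, the lactate receptor, had 460 and 604 counts in ARID1B shRNA cells and 570 in control cells (-0.08 ± 0.191; adjusted p = 0.868). HCAR2, the niacin and beta-hydroxybutyrate receptor, had 5 counts under each hairpin and 12 in control cells (-1.22 ± 0.738; adjusted p = 0.387), and was the 1 receptor tested only through the control library. HCAR2 and its near-identical copy HCAR3 cannot be separated with certainty in read counts. GPR183, GPR55, GPR18, GPR34 and GPR174 had at most 140 counts in any library and did not pass.

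The 63 other numbered GPR genes, many of them without a known ligand, gave 2 higher and 2 lower of 28 tested, with a median log2 fold change of 0.06. That is 7.14% each way, beside 7.16% higher and 4.0% lower of the protein-coding genes tested. GPR39 and GPR12 had under 10 counts in control cells and were tested only through the ARID1B shRNA libraries. Without them 1 of 26 rose and 2 fell, with a median of 0.006. GPR85 (ENSG00000164604), an orphan receptor best known from brain, had 1354 and 1264 counts under hairpins 2 and 3, against 570 in control cells (1.22 ± 0.165; adjusted p = 0.000146). GPR39 (ENSG00000183840), the zinc receptor, had 84 and 22 counts in ARID1B shRNA cells, against 1 in control cells (adjusted p = 0.0106), with ratios to control of 86.7 (95% counting interval 15.2 to 3466) and 21.9 (3.54 to 904). LYPD1, on the other strand, shares 34.8% of GPR39's exon length and had nearly the same counts, 85 and 22 in ARID1B shRNA cells and 2 in control cells. Since strand use in the counting is not given, the reads cannot be assigned to GPR39 or LYPD1.

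The orphan receptors that fell were GPR162 and GPR153. GPR162 (ENSG00000250510) had 81 and 121 counts in ARID1B shRNA cells, against 235 in control cells, 2.30-fold lower (-1.20 ± 0.274; adjusted p = 0.0107). GPR153 (ENSG00000158292) had 627 and 718 counts in ARID1B shRNA cells, against 1037 in control cells (-0.61 ± 0.160; adjusted p = 0.0262). Neither passed with DESeq2 (adjusted p = 0.130 and 0.138). The abundant members of this group did not pass, and several of them are membrane proteins of the Golgi or of lysosomes whose place among the receptors rests on the name. GPR107 had 5124 and 5025 counts in ARID1B shRNA cells and 4282 in control cells (0.27 ± 0.130; adjusted p = 0.262). GPR108 had 1944 and 2032 counts in ARID1B shRNA cells and 1879 in control cells (0.10 ± 0.136; adjusted p = 0.748), and GPR137 had 1729 and 1745 counts against 1569 in control cells. GPR160 had 1655 and 1111 counts in ARID1B shRNA cells and 978 in control cells (0.52 ± 0.204; adjusted p = 0.142), and GPR141 had 559 and 497 counts against 744 (-0.47 ± 0.176; adjusted p = 0.121). GPR180 and GPR89A had 761 and 379 counts under hairpin 2, 712 and 444 under hairpin 3, and 579 and 378 in control cells, and GPR89A shares reads with its near-identical copy GPR89B.

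Hairpin 2 gave the larger change in most receptors. Of the 24 that rose, 22 (91.67%) had a higher CPM under hairpin 2 than under hairpin 3, and the same held for 932 (83.29%) of the 1119 genes called higher in the whole table. Of the 6 that fell, 5 had a lower CPM under hairpin 2. Over all genes called lower, the share with a lower CPM under hairpin 2 than under hairpin 3 was not counted. ARID1B was left at nearly the same level by both, at 0.433 of control (95% counting interval 0.412 to 0.455) under hairpin 2 and 0.422 (0.402 to 0.444) under hairpin 3. With 1 library for each hairpin, this difference has no replicate check. In 16 of the 86 tested receptors the hairpins lay on opposite sides of control, and in LTB4R and P2RY11 alone did both counting intervals exclude 1.

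**Figure D3:**
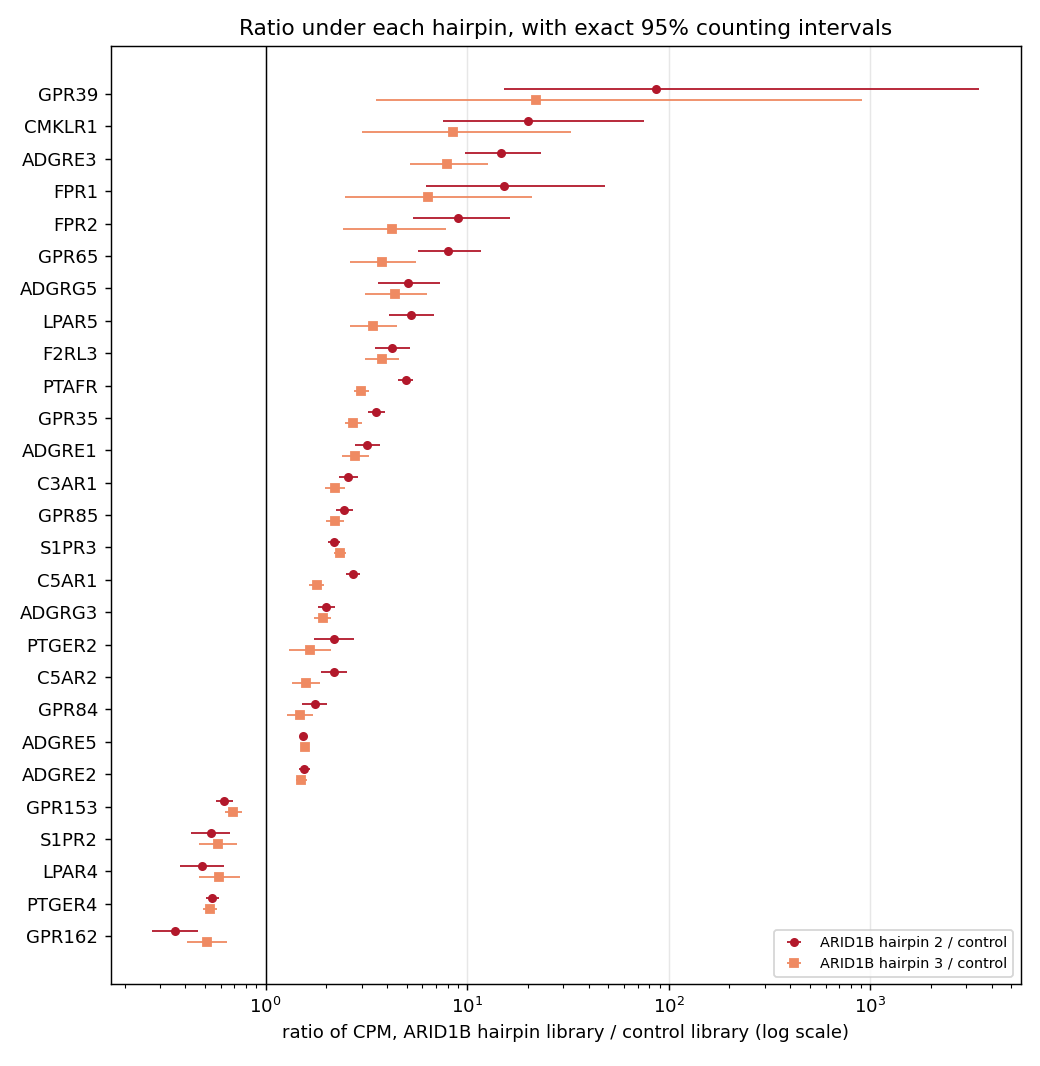
Ratio of CPM to control under hairpin 2 and under hairpin 3, on a log axis, for called receptors, without FPR3 and P2RY14, which had 0 counts in control. Bars are exact 95% counting intervals, and for every receptor shown both hairpins lie on the same side of 1, widest for GPR39.

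Levels per kilobase of exon, which allow genes to be ordered within a library, put the same 4 receptors first in ARID1B shRNA cells and in control cells. P2RY11 had 76.6 and 52.2 CPM per kilobase under hairpins 2 and 3 and 56.6 in control cells, with the limit on its reads given above. P2RY2 followed with 34.8 and 36.6 in ARID1B shRNA cells and 26.9 in control cells, then ADGRE5 with 30.5 and 31.0 against 19.9, and S1PR4 with 17.5 and 16.1 against 16.1. Of these 4, ADGRE5 alone passed the test between ARID1B shRNA and control cells. Below them the order changed. C5AR1 stood at rank 6 in ARID1B shRNA cells and 13 in control cells, with 12.0 and 7.94 CPM per kilobase against 4.44. PTAFR stood at rank 8 in ARID1B shRNA cells and 24 in control cells, with 11.2 and 6.76 CPM per kilobase against 2.27. C3AR1 stood at rank 9 in ARID1B shRNA cells and 17 in control cells. In the other direction PTGER4 stood at rank 20 in ARID1B shRNA cells and 7 in control cells, with 4.20 and 4.08 CPM per kilobase against 7.71.

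**Figure D4:**
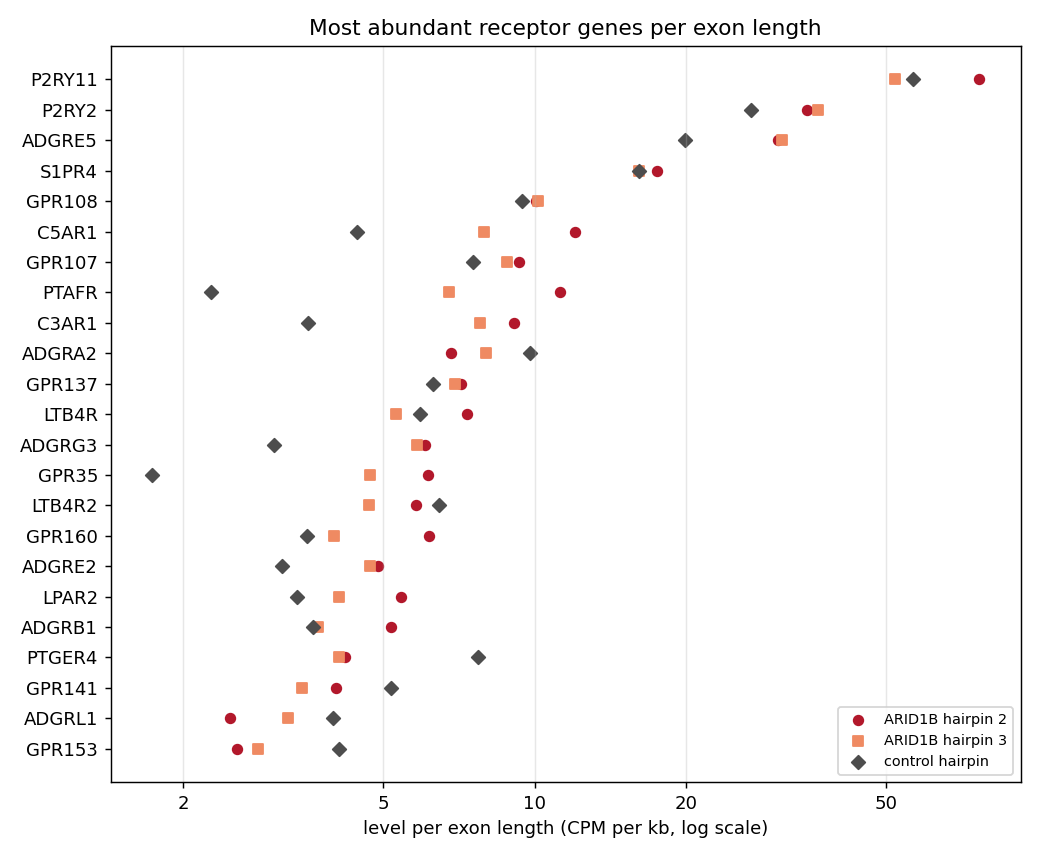
Level per kilobase of exon, in CPM per kilobase on a log axis, of the most abundant receptors, with ARID1B hairpins 2 and 3 and the control library as separate points. C5AR1, C3AR1 and PTAFR lie clear of control under both hairpins, and PTGER4 lies below it.

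Some of the receptors that rose are neighbours in the genome. On chromosome 19, FPR1, FPR2 and FPR3 lie in a row and all rose, and C5AR1 and C5AR2 lie side by side and both rose. Chromosome 19 held 21 of the 164 receptors, 17 of the 86 tested and 10 of the 24 that rose. Among the 10 are FPR1 and FPR3, which were tested only through the ARID1B shRNA libraries. The share of all called genes that lie on chromosome 19 was not counted, so no conclusion is drawn from these counts. Not all neighbours were called alike: ADGRE5 rose beside ADGRL1, which did not pass. LPAR4 fell beside P2RY10, which had too few counts to be tested, so that pair cannot be compared.

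The genes that carry and end the signal were described with lists of G protein subunits, RGS proteins, kinases and arrestins, effectors, and ligands with the enzymes that make them. Of 121 genes listed 93 were tested, 19 rose and 4 fell, which is 20.4% and 4.3% against the 5.49% and 3.21% of all genes tested. The median log2 fold change was 0.10. CAMP and RGS4, among the 19, had under 10 counts in control cells and were tested only through the ARID1B shRNA libraries. The same held for GNG4 and RGS13, which did not pass. No count without such genes was made, and the lists were chosen with earlier results of these data known. Fewer passed under some settings: 9 rose under robust empirical Bayes, 10 with DESeq2 and 7 at a mean CPM of at least 1.

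Ligand-making genes gave the largest changes. HDC, histidine decarboxylase, which makes histamine and is among the basophil and mast cell markers, had 20431 and 10100 counts under hairpins 2 and 3, against 663 in control cells (log2 fold change 4.55 ± 0.345; adjusted p = 1.0e-06, and 0.285 under robust empirical Bayes). CAMP, the precursor of the cathelicidin peptide that FPR2 binds, had 62 and 46 counts in ARID1B shRNA cells, against 3 in control cells (adjusted p = 0.00154), at ratios of 21.3 (95% counting interval 6.97 to 106) and 15.3 (4.91 to 76.8). ALOX5AP, the 5-lipoxygenase activating protein of leukotriene synthesis, had 481 and 219 counts in ARID1B shRNA cells, against 63 in control cells (2.50 ± 0.425; adjusted p = 0.00122, and 0.263 under robust empirical Bayes). LPCAT2, which makes platelet activating factor, rose, as did PTAFR, the receptor for that lipid, at 6878 and 4990 counts in ARID1B shRNA cells against 2703 in control cells (1.16 ± 0.179; adjusted p = 0.000518). ADA, which breaks down adenosine, fell, with 975 and 1282 counts in ARID1B shRNA cells against 2246 in control cells (-0.98 ± 0.154; adjusted p = 0.000631). In all, 6 of 18 tested genes of this list rose and 1 fell.

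Among 12 alpha subunits tested, 1 rose and 2 fell. GNA15, the promiscuous Gq-family subunit of blood cells, had 3658 and 3844 counts under hairpins 2 and 3, against 2399 in control cells (0.66 ± 0.133; adjusted p = 0.00423). GNA11, a Gq-family subunit found in most tissues, had 360 and 374 counts in ARID1B shRNA cells, against 708 in control cells (-0.93 ± 0.178; adjusted p = 0.00315). So within the Gq family one subunit rose and another fell, and GNAQ did not pass. GNA12 had 1297 and 1785 counts in ARID1B shRNA cells, against 2332 in control cells (-0.58 ± 0.160; adjusted p = 0.0323, and 0.114 with DESeq2). GNAI2, the main Gi subunit of leukocytes, had 16300 and 13453 counts in ARID1B shRNA cells and 13715 in control cells (0.14 ± 0.152; adjusted p = 0.674), and was added after its value was seen. Of 12 beta and gamma subunits GNB5, the partner of R7 RGS proteins, rose (2461 and 2298 counts in ARID1B shRNA cells against 1388 in control cells; 0.80 ± 0.144; adjusted p = 0.00189), and so did GNG2 (723 and 509 against 340; 0.88 ± 0.228; adjusted p = 0.0233, and 0.0591 with DESeq2).

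Downstream, 5 of 26 tested effectors rose and 1 fell. PRKAR2B, a regulatory subunit of the cyclic AMP dependent kinase, had 119 and 138 counts under hairpins 2 and 3, against 347 in control cells (-1.41 ± 0.232; adjusted p = 0.000881). RASGRP4, a Ras exchange factor of mast cells and granulocytes, had 371 and 240 counts in ARID1B shRNA cells, against 144 in control cells (1.11 ± 0.290; adjusted p = 0.0244). ADCY7, an adenylyl cyclase of blood cells, had 14224 and 9716 counts in ARID1B shRNA cells, against 6722 in control cells (0.86 ± 0.191; adjusted p = 0.00907). PLCB2, the phospholipase C beta of leukocytes, had 4964 and 3356 counts in ARID1B shRNA cells, against 2406 in control cells (0.82 ± 0.193; adjusted p = 0.0134). For ADCY7 and PLCB2, hairpin 2 stood well above hairpin 3, and neither passed in DESeq2 (adjusted p = 0.510 for ADCY7 and 0.578 for PLCB2) or under robust empirical Bayes (0.198 and 0.261). RASGRP4 was lost with DESeq2 too (adjusted p = 0.0765).

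Among the genes that end the signal, 4 of 14 tested RGS genes and 1 of 11 kinases and arrestins rose. RGS14 had 4224 and 3321 counts under hairpins 2 and 3, against 2603 in control cells (0.56 ± 0.159; adjusted p = 0.0386). RGS18, an RGS protein of platelets and myeloid cells, had 1998 and 1531 counts in ARID1B shRNA cells, against 1200 in control cells (0.58 ± 0.174; adjusted p = 0.0488). RGS3 had 151 and 94 counts in ARID1B shRNA cells against 46 in control cells (1.43 ± 0.390; adjusted p = 0.0304), and RGS4 had 80 and 20 counts against 4 (3.63 ± 0.977; adjusted p = 0.0288). GRK5, a receptor kinase, had 540 and 531 counts in ARID1B shRNA cells, against 339 in control cells (0.68 ± 0.192; adjusted p = 0.0373). Of these 5 genes only RGS4 passed with DESeq2 (adjusted p = 0.0402). Under robust empirical Bayes RGS3 and GRK5 passed (adjusted p = 0.0455 and 0.0443), and RGS4 did not (0.395). With under 10 counts in control cells, RGS4 was tested only through the ARID1B shRNA libraries. At a mean CPM of at least 1 it was not tested. No gene of the RGS, kinase and arrestin lists fell.

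**Figure D5:**
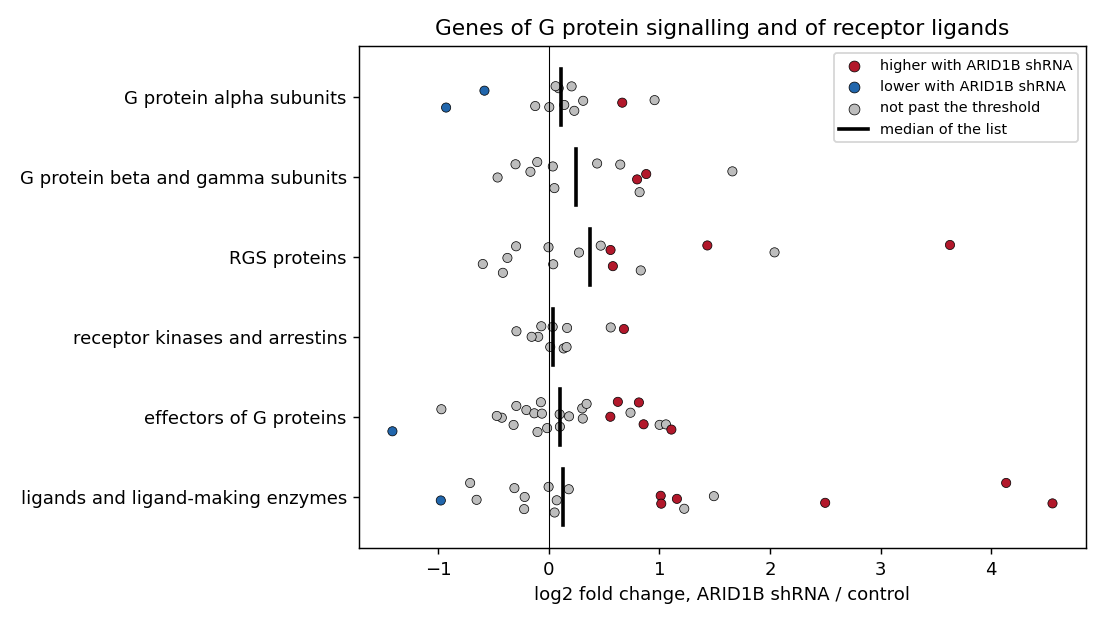
Log2 fold change, ARID1B shRNA over control shRNA, of each tested gene of the signalling lists, with called genes in colour and a bar at the median of each list. HDC lies farthest above 0 at 4.55, and GNA11, GNA12, PRKAR2B and ADA are the 4 called lower.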

How the data were processed

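The authors deposited whole-number read counts per gene for 3 libraries, not normalized. STAR, featureCounts, Cufflinks and hg19 are named per the submitters' processing notes; which tool counted, the annotation release and strand use: not given in the sources used here, so reads of overlapping genes are uncertain. GENCODE 29 named 52338 of 57773 IDs and gave gene types and exon lengths. Members and lists were chosen with earlier results of these data known. A few receptors are counted but not reported here by name. Otherwise each member past the threshold is named, as are members with a mean CPM of at least 5 or of the ligand families listed with at least 10 counts, and up to 4 called genes per signalling list.

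Counts were fitted in R 4.3.3 with edgeR 4.0.16 on the whole table: filterByExpr (minimum count 10), TMM factors (1.0024 under hairpin 2, 0.9903 under hairpin 3, 1.0074 in control), glmQLFit with legacy = FALSE and a two-sided glmQLFTest, with Benjamini-Hochberg adjusted p under 0.05. There was 1 residual degree of freedom and the common coefficient of variation was 0.11. The SE is the log2 fold change over the square root of F. The fit was tested on simulated data. Single-hairpin ratios carry exact 95% counting intervals. Reads carry no molecular identifiers, so intervals and the limit of 3 counts (0.0499, 0.0481 and 0.0483 CPM under hairpins 2 and 3 and in control) cover counting error only. Alternatives were DESeq2 1.42.0, other size factors and filters, and robust or legacy fits.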

Additional observations from a re-analysis of the deposited data

How the results depend on the processing

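No paired analysis was possible because the groups share no replicate numbers and there is 1 control library. For the same reason counts of calls could not be made without a hairpin. Over the alternatives run, no called receptor changed direction. Against 24 receptors called higher and 6 called lower, the counts were 24 and 6 with DESeq2 size factors, 22 and 8 with upper quartile factors, 24 and 8 with library size alone, 25 and 7 in the legacy fit and 17 and 6 with robust empirical Bayes. They were 16 and 2 at a mean CPM of at least 1, 19 and 1 with DESeq2, and 0 and 0 with no filter, where ARID1B stayed at -1.23 (adjusted p = 0.465) and 3218 genes of the table had an unadjusted p under 0.05. Of the 24 higher calls 16 were lost in no other setting than the one without a filter, and of the 6 lower calls PTGER4 alone. Those 16 include P2RY14, CMKLR1 and FPR1, which were not tested at a mean CPM of at least 1. DESeq2 gave P2RY14 no adjusted p, so these calls were not checked in every setting. For the signalling lists, 19 higher became 10 with DESeq2, 9 with robust empirical Bayes, 7 at a mean CPM of at least 1 and 0 with no filter, and 4 lower became 7 with upper quartile factors and 0 with no filter. Receptors at least 2-fold higher numbered 25, or 13 at a mean CPM of at least 1 and 21 to 26 with 1 hairpin left out; those at least 2-fold lower numbered 2, or 1 and 2 to 4. ARID1B ranged from -1.24 to -1.21 with 1 hairpin left out. Of all called genes 63.1% were higher, against 53.8% with upper quartile factors and 73.7% with DESeq2. At these depths a receptor with 0 counts is below 0.0499 CPM, not absent.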

Other observations

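ADGRE4P (ENSG00000268758), the human pseudogene of the ADGRE family, was left out of the receptors by its gene type, but moved with ADGRE3. It had 96 and 49 counts under hairpins 2 and 3, against 3 in control cells (log2 fold change 4.56 ± 0.793, SE; edgeR quasi-likelihood test, adjusted p = 0.00145). The ratios to control were 33.0 (95% counting interval 11.0 to 163) and 16.3 (5.25 to 81.6). Reads shared with other ADGRE genes make this value uncertain. With under 10 counts in control cells, ADGRE4P was tested only through the ARID1B shRNA libraries.

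Receptors whose names fall outside the rule were looked at in a list of 79 symbols that was chosen after the data were seen. Of these 75 were in the table, 32 were tested, 4 rose, 2 fell and 26 did not pass. That is 12.5% higher and 6.25% lower, against 5.49% and 3.21% of all genes tested. SUCNR1, the succinate receptor, had 6463 and 4816 counts under hairpins 2 and 3, against 2335 in control cells (1.30 ± 0.175). PTGDR2, the prostaglandin D2 receptor that marks eosinophils, basophils and type-2 lymphocytes, had 1776 and 1247 counts in ARID1B shRNA cells, against 541 in control cells (1.51 ± 0.209). CNR2, the cannabinoid receptor of immune cells, had 1129 and 1050 counts in ARID1B shRNA cells, against 335 in control cells (1.72 ± 0.180). These 3 also passed with DESeq2 and with robust empirical Bayes, whereas TBXA2R, the thromboxane receptor, passed with DESeq2 but not with robust empirical Bayes (1374 and 947 counts against 625; 0.92 ± 0.210).

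LGR4, the R-spondin receptor of WNT signalling, had 208 and 410 counts under hairpins 2 and 3, against 1894 in control cells (-2.60 ± 0.234), and missed the threshold under robust empirical Bayes (adjusted p = 0.0759). FZD1, a WNT receptor, had 188 and 202 counts in ARID1B shRNA cells, against 381 in control cells (-0.95 ± 0.214), and missed it with DESeq2 (adjusted p = 0.102). LGR4 was lower under hairpin 2 than under hairpin 3.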
